A study of Mus musculus with 12 samples.

Results

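From the 48795 genes listed in the count files, a set of 10 was chosen that encode enzymes of the pentose phosphate pathway and other enzymes that can form NADPH, and 9 of them are described by name: Pgls, Pgd, Rpia, Tkt, Taldo1, Me1, Idh1, Me2 and Mthfd2. They were matched to the files through their Ensembl identifiers. All 10 were among the 11228 genes tested. RNA was sequenced from mouse bone marrow-derived macrophages (BMDMs, bone marrow cells grown with M-CSF), in 12 libraries, 2 for each of 6 groups. The study asked whether itaconate, the metabolite made by the mitochondrial enzyme ACOD1, is needed for the response of macrophages to particulate matter (PM, here urban dust).

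WT BMDMs are labelled C57BL/6, and the study's methods give C57BL/6NJ. The BMDMs labelled Acod1-/- came from the strain C57BL/6NJ-Acod1em1(IMPC)J/J, a germ line allele, so that every cell of the animal carries it. Per the study's methods, the mice were males of 7 to 11 weeks and the marrow was cultured for 8 to 10 days. In each genotype, 1 group is labelled Control and is called vehicle here, a group received PM at 20 ug/cm2 for 24 hours, and a group received 4-octyl itaconate (OI, an itaconate ester that enters cells) at 0.25 mM for 2 hours before PM. No group received OI alone, so that OI was measured only on top of PM. The labels do not say whether the 2 libraries of a group came from separate animals or cultures, so the p-values measure only the spread between these samples, which may be technical.

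The pentose phosphate pathway branches from glycolysis at glucose 6-phosphate. Its oxidative branch, in which the lactonase PGLS acts just before PGD, reduces NADP to NADPH. Its non-oxidative branch (RPIA, transketolase, transaldolase) interconverts sugar phosphates and makes no NADPH. Cytosolic malic enzyme (ME1) and isocitrate dehydrogenase (IDH1) also form NADPH, whereas ME2 and MTHFD2 are mitochondrial enzymes that work mainly with NAD, so that the gene set is wider than the pathway. In macrophages NADPH feeds the oxidative burst of NADPH oxidase and the glutathione and thioredoxin systems, and several of these genes are known targets of the transcription factor NRF2.

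The libraries held between 33616577 and 36817898 counts. Values are given as normalized CPM (counts scaled to the size of the library, with TMM factors) and differences as log2 fold changes from edgeR's quasi-likelihood test, with the p-value adjusted by Benjamini-Hochberg over all 11228 genes. A gene was called at an adjusted p of 0.05 or less. All 10 macrophage markers examined were expressed, with summed levels of 14800 to 27900 CPM, most of it Lyz2 (9080 to 21200 CPM). Among T cell markers Cd3e was at 0 in every library and Cd4 was at 0.301 to 1.33 CPM. The B cell marker Cd79b was at 0.862 to 4.04 CPM. The summed level of 9 neutrophil markers was 6.47 to 7.35 CPM with vehicle, 13.1 to 20.2 CPM with PM and 29.5 to 61 CPM with OI and PM, most of it S100a8, whereas Ly6g and Retnlg were at 0 in all WT libraries. S100a9, Ngp and Ltf went the other way from PM to OI and PM, in WT from 1.26 and 2.16 to 0.419 and 0.474 CPM, from 0.914 and 1.07 to 0.180 and 0.0338 CPM and from 0.714 and 0.721 to 0.0299 and 0.0338 CPM, and were lower with OI and PM than with PM in Acod1-/- as well. The macrophage markers Mertk and Fcgr1 were lower with OI and PM than with vehicle in WT, by -1.36 and -1.58 on the log2 scale. The part of these shifts in the results below was not tested, and in bulk RNA fewer expressing cells and less RNA per cell cannot be told apart.

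Acod1 was measured first as a check of the labels. In WT it was at 1.84 and 2.49 CPM with vehicle, 181 and 170 CPM with PM, and 32.6 and 57.1 CPM with OI and PM. In the libraries labelled Acod1-/- it was at 1.26 and 1.22 CPM, 108 and 94.1 CPM, and 24.4 and 26.8 CPM. Counts over the whole gene do not show which of its exons were read, so these counts check nothing about the genotype.

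The 2 libraries of WT with OI and PM stood apart from each other. Over genes with at least 20 counts the chi-square between them, per degree of freedom, came to 58.5, against 2.61 to 27.3 in the other groups, and 148 genes differed by at least 1 on the log2 scale. The difference between them rose with exonic length across genes (Spearman rho 0.61 over genes, which are not replicates), with long genes higher in replicate 1. The WT libraries with PM, which had the 27.3, differed in the same way (rho 0.60). Among the 10 enzyme genes, replicate 1 was lower than replicate 2 by 0.54 for Pgls, 0.51 for Taldo1, 0.32 for Mthfd2 and 0.27 for Tkt on the log2 scale. For the enzyme genes, values of this group's comparisons with PM and with vehicle are also given with its libraries left out where that changed a call or moved a called value by over 1.5 times.

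The promoter stretches of 3 genes that rose with PM and again with OI, Me1, Pgd and Taldo1, are shown because NRF2 binds the antioxidant response element, whose core is written TGACNNNGC. Each runs from 100 bases before to 10 bases after the start of the gene in RefSeq (GRCm38.p6), 5′ to 3′ on the strand of the gene, with a match to the core on either strand in capitals, which these stretches hold in Me1 alone of the 3.
Me1, chr9:86695905-86696014, minus strand: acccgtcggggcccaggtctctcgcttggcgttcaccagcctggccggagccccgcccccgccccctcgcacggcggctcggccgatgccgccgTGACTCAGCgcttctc
Pgd, chr4:149166696-149166805, minus strand: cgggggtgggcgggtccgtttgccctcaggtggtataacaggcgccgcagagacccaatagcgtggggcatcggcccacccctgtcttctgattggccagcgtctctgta
Taldo1, chr7:141392060-141392169, plus strand: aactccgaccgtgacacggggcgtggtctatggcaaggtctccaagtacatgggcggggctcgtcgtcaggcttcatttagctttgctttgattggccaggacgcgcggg

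The match in Me1 begins 6 bases before the start. RefSeq windows of 300 bases (250 before to 50 after the start) were found for 9 of the 10 genes, 12 windows in all, and 3 of these held the core. Besides that of Me1 they included a second start of Pgd, where the match began 4 bases into the transcript. Of all 32851 windows 12.4% held it, so that a match is common and is a description, not a site. The letters TGATGNAA, searched on both strands for the amino acid response element that ATF4 binds, were in none of the 12 windows and in 3.97% of all windows.

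Pgd encodes 6-phosphogluconate dehydrogenase, which forms NADPH in the oxidative branch. Its WT values were 678 and 657 CPM with vehicle, 1217 and 1278 CPM with PM, and 2438.5 and 2819 CPM with OI and PM. The Acod1-/- libraries had 605 and 602 CPM, 1132 and 1119 CPM, and 2255 and 2252.5 CPM. It rose at each step in both genotypes, with no overlap between treatments. With 2 libraries a group this is common. Of all genes tested, 72.4% in WT and 77% in Acod1-/- did not overlap between vehicle and PM. Between PM and OI with PM the shares were 59.1% and 74.4%, so a lack of overlap here and below is a description. The log2 difference of Pgd for PM was 0.90 ± 0.07 in WT (adjusted p = 1.24e-05, edgeR) and 0.90 ± 0.07 in Acod1-/- (adjusted p = 1.03e-05). For OI before PM it was 1.08 ± 0.07 in WT (adjusted p = 9.06e-07) and 1.002 ± 0.07 in Acod1-/- (adjusted p = 1.61e-06). The gene lies on chr4:149149991-149166771 (minus strand, GRCm38).

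Pgls encodes the lactonase that acts just before it. In WT it was at 58.0 and 66.9 CPM with vehicle, 75.6 and 92.9 CPM with PM, and 85.2 and 124 CPM with OI and PM. Acod1-/- BMDMs had it at 64.6 and 62.6 CPM, 76.1 and 79.1 CPM, and 82.2 and 84.9 CPM. PM and OI with PM overlapped in WT. None of the 4 single steps was called: for PM the difference was 0.43 ± 0.16 in WT (adjusted p = 0.0723, edgeR) and 0.29 ± 0.16 in Acod1-/- (adjusted p = 0.215), and for OI 0.31 ± 0.16 (adjusted p = 0.136) and 0.11 ± 0.16 (adjusted p = 0.653). The OI difference in WT was 0.56 without replicate 1 of WT with OI and PM (adjusted p = 0.00156) and 0.02 without replicate 2 (adjusted p = 0.929). The PM difference in WT was 0.57 and called without replicate 1 of PM (adjusted p = 0.0388) and 0.28 without replicate 2 (adjusted p = 0.405). It was also called by DESeq2, in the fit of the compared groups alone, with the replicate block, with the length correction, with both of these and with no filter on low counts (adjusted p = 0.000577 to 0.0488), so the PM call of Pgls in WT depends on the setting. The OI difference in WT was called with no filter (adjusted p = 0.0149) and with length correction and replicate block together (adjusted p = 0.0453), and the PM difference in Acod1-/- with no filter (adjusted p = 0.0452) and in the compared groups alone (adjusted p = 0.000949). Against vehicle, OI and PM gave 0.74 ± 0.16 in WT (adjusted p = 0.00250), 0.99 without replicate 1 of OI and PM and 0.45 without replicate 2, both called. Its exons share 776 bases with Fam129c on the same strand, so reads there are uncertain.

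**Figure D1:**
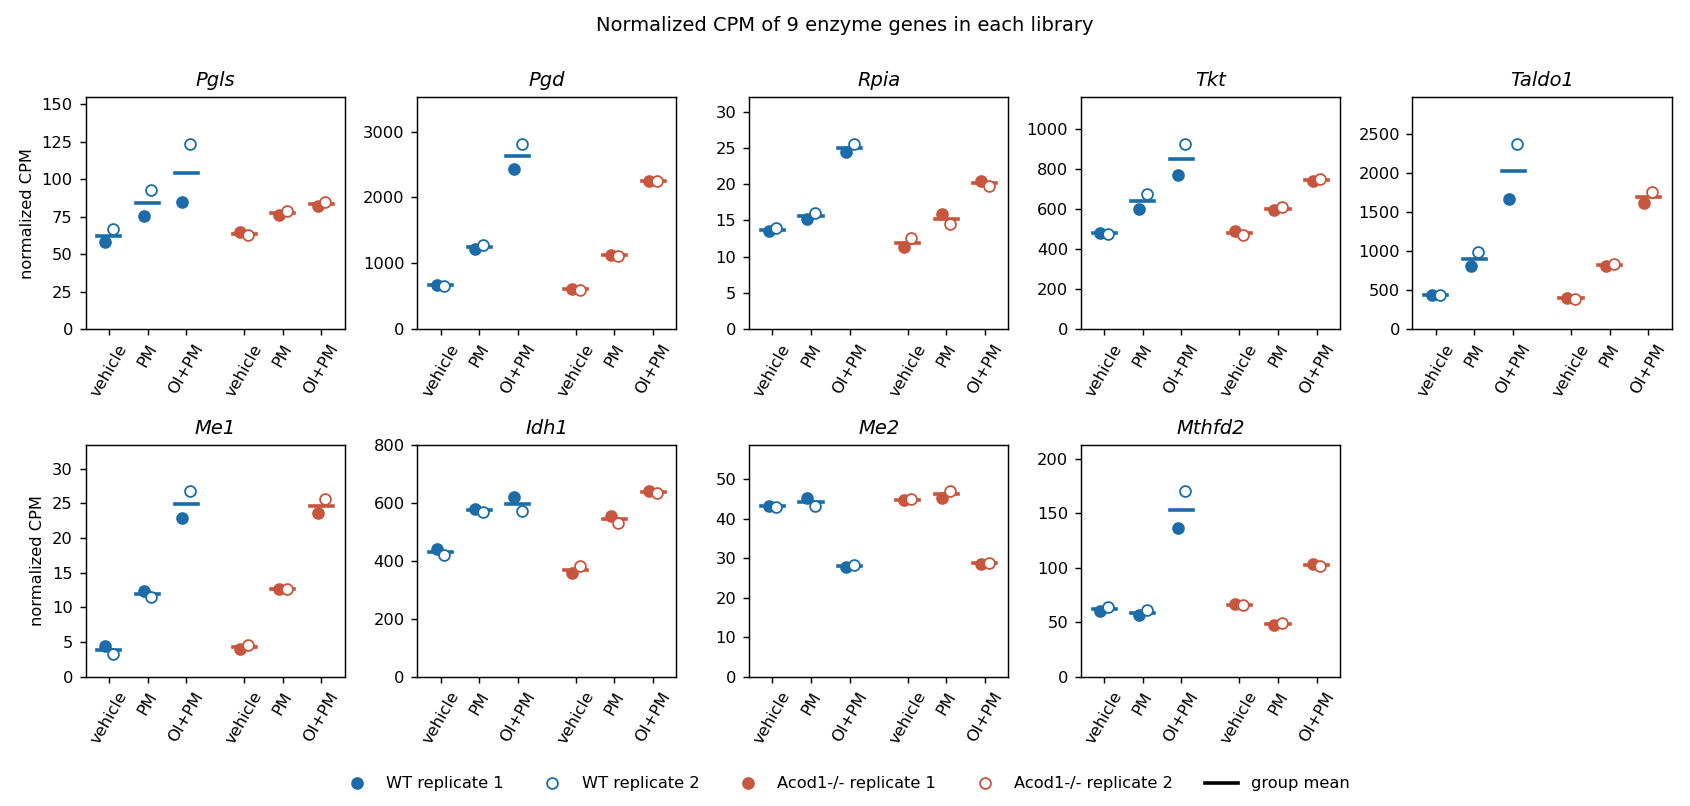
Normalized CPM of 9 enzyme genes (vertical axis, from 0) in the 12 libraries by genotype and treatment. Filled and open points are replicates 1 and 2 and bars are group means. Pgd in WT steps from 678 and 657 to 1217 and 1278 to 2438.5 and 2819, and Me2 is the gene whose libraries with OI and PM lie below all its others.

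In the non-oxidative branch, Taldo1, which encodes transaldolase, had steps close in size to those of Pgd. WT libraries had 442 and 436 CPM with vehicle, 816 and 992 CPM with PM, and 1666 and 2378 CPM with OI and PM. Its Acod1-/- values were 404 and 386 CPM, 809.5 and 831 CPM, and 1621 and 1757 CPM. No treatments overlapped, and the widest spread was that of WT with OI and PM. PM raised it by 1.04 ± 0.145 in WT (adjusted p = 0.000652, edgeR) and 1.05 ± 0.145 in Acod1-/- (adjusted p = 0.000548). OI raised it by 1.16 ± 0.145 (adjusted p = 0.000122) and 1.04 ± 0.145 (adjusted p = 0.000282). Without replicate 1 of WT with OI and PM the OI difference in WT was 1.40, and without replicate 2 it was 0.88, both called.

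Tkt encodes transketolase, which works in sequence with transaldolase. Its WT values were 481 and 475 CPM with vehicle, 602 and 675 CPM with PM, and 769.8 and 926 CPM with OI and PM. In Acod1-/- it was at 488 and 471 CPM, 595 and 608 CPM, and 738 and 749 CPM. Treatments did not overlap, but the steps were smaller than those of Taldo1: 0.42 ± 0.09 in WT (adjusted p = 0.00668, edgeR) and 0.33 ± 0.09 in Acod1-/- (adjusted p = 0.0206) for PM, and 0.41 ± 0.09 (adjusted p = 0.00357) and 0.30 ± 0.09 (adjusted p = 0.0195) for OI. The OI difference in WT was 0.54 without replicate 1 of OI and PM and 0.27 without replicate 2, both called, and was not called in the fit of the compared groups alone (adjusted p = 0.103). In WT the PM call was lost without replicate 2 of vehicle (adjusted p = 0.0547) or replicate 2 of PM (adjusted p = 0.0563). In Acod1-/- the PM difference was no longer called without any 1 of the 4 libraries compared (adjusted p = 0.0835 to 0.134), and neither was the OI difference (adjusted p = 0.0742 to 0.0994), which was also lost with the length correction (adjusted p = 0.0556).

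Rpia, which encodes ribose 5-phosphate isomerase, was expressed at a low level. In WT it was at 13.6 and 13.9 CPM with vehicle, 15.2 and 15.97 CPM with PM, and 24.4 and 25.6 CPM with OI and PM. The Acod1-/- libraries had 11.3 and 12.6 CPM, 15.8 and 14.5 CPM, and 20.5 and 19.8 CPM. The OI step exceeded the PM step in WT. The libraries of the 3 treatments were separate in both genotypes. Between vehicle and PM in WT this held for 72.4% of all genes tested. For PM the difference was 0.18 ± 0.08 in WT, not called (adjusted p = 0.140, edgeR), and 0.35 ± 0.09 in Acod1-/- (adjusted p = 0.0156). For OI it was 0.68 ± 0.08 (adjusted p = 0.000103) and 0.41 ± 0.08 (adjusted p = 0.00356). In Acod1-/- the PM call was lost without replicate 1 of vehicle (0.27, adjusted p = 0.143) or without replicate 1 of PM (0.28, adjusted p = 0.127).

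Outside the pathway, Me1, which encodes cytosolic malic enzyme, had the largest difference of the 10 genes after PM and rested on few reads, 128 to 833 in a library. WT libraries had 4.41 and 3.26 CPM with vehicle, 12.4 and 11.6 CPM with PM, and 23.0 and 26.8 CPM with OI and PM. Acod1-/- BMDMs had it at 3.96 and 4.64 CPM, 12.6 and 12.7 CPM, and 23.6 and 25.7 CPM. The 3 treatments were far apart in both genotypes, and the genotypes overlapped or lay side by side at each. PM raised it by 1.65 ± 0.15 in WT (adjusted p = 3.62e-05, edgeR) and 1.56 ± 0.15 in Acod1-/- (adjusted p = 3.89e-05). OI raised it by 1.05 ± 0.13 (adjusted p = 0.000112) and 0.96 ± 0.13 (adjusted p = 0.000227).

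Idh1 encodes the cytosolic isocitrate dehydrogenase. Its WT values were 442 and 422 CPM with vehicle, 582 and 571 CPM with PM, and 622 and 573 CPM with OI and PM. Its Acod1-/- values were 360.1 and 382 CPM, 555 and 533 CPM, and 642 and 636 CPM. With OI and PM the WT libraries overlapped those with PM alone. PM raised it by 0.42 ± 0.06 in WT (adjusted p = 0.00082, edgeR) and 0.55 ± 0.06 in Acod1-/- (adjusted p = 0.000112). For OI the difference was 0.05 ± 0.06 in WT, not called (adjusted p = 0.511), and 0.23 ± 0.06 in Acod1-/- (adjusted p = 0.0130), the latter lost without replicate 2 of PM or without either library with OI and PM (adjusted p = 0.0614 to 0.0936), with total count scaling (adjusted p = 0.113) and with the length correction (adjusted p = 0.0754). The OI difference in Acod1-/- minus that in WT was 0.18 ± 0.08 (adjusted p = 0.779), so a difference between genotypes was not shown.

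Me2, the mitochondrial malic enzyme, moved against the rest. In WT it was at 43.3 and 43.0 CPM with vehicle, 45.4 and 43.2 CPM with PM, and 27.7 and 28.4 CPM with OI and PM. In Acod1-/- it was at 44.8 and 45.0 CPM, 45.3 and 47.0 CPM, and 28.6 and 28.9 CPM. The OI libraries lay below all others. For PM the difference was 0.04 ± 0.06 in each genotype (adjusted p = 0.664 in WT and 0.631 in Acod1-/-, edgeR), with 95% intervals from -0.10 to 0.17 in WT and from -0.09 to 0.18 in Acod1-/-. OI lowered it by -0.66 ± 0.06 in WT (adjusted p = 1.47e-05) and -0.69 ± 0.06 in Acod1-/- (adjusted p = 1.13e-05).

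Mthfd2 encodes the mitochondrial folate dehydrogenase and cyclohydrolase that is induced in growing cells and after amino acid stress. WT libraries had 60.1 and 63.5 CPM with vehicle, 56.6 and 60.9 CPM with PM, and 136 and 170.4 CPM with OI and PM. The Acod1-/- libraries had 66.3 and 66.0 CPM, 47.8 and 49.1 CPM, and 103 and 101 CPM. Vehicle and PM overlapped in WT and not in Acod1-/-, and the OI libraries were the highest in both. For PM the difference was -0.07 ± 0.10 in WT, not called (adjusted p = 0.585, edgeR), and -0.45 ± 0.10 in Acod1-/- (adjusted p = 0.00818). That call was lost without either vehicle library or without replicate 1 of PM (adjusted p = 0.0511 to 0.0668). OI raised it by 1.38 ± 0.10 in WT (adjusted p = 1.94e-06) and 1.08 ± 0.10 in Acod1-/- (adjusted p = 1.34e-05).

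Counted by comparison, 6 of the 10 genes were called after PM in WT, all higher, where 24.8% of all genes tested were called, 12.6% higher and 12.2% lower. The median log2 difference of the 10 was 0.43, beside 0.01 over all genes. In Acod1-/- 8 were called after PM, 7 higher and Mthfd2 lower (background 23.9%, of which 12% higher and 11.9% lower), but 5 without replicate 1 of vehicle and 5 without replicate 1 of PM, where 12.5% and 12.4% of all genes were called. The median was 0.40, beside -0.000245 over all genes. Taldo1 and Me1 passed 2-fold after PM in both genotypes, a rise of a size that 3.02% of genes reached in WT and 3.19% in Acod1-/-. With a library left out Taldo1 in WT was as low as 0.89 on the log2 scale, under 2-fold.

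OI before PM left 8 called in WT, 7 higher and Me2 lower (background 43.9%), and 9 in Acod1-/-, 8 higher and Me2 lower (background 34.6%). The medians were 0.73 and 0.57, beside 0.02 and -0.000561 over all genes. Genes called higher made up 21.3% of those tested in WT and 13.9% in Acod1-/-, and genes called lower 22.6% and 20.6%. Pgd, Taldo1, Me1 and Mthfd2 rose past 2-fold in WT (2.3% of all genes) and Pgd, Taldo1 and Mthfd2 in Acod1-/- (1.85%). Only Mthfd2 stayed past 2-fold whichever library was left out. In such fits Pgd, Taldo1 and Me1 were as low as 0.97, 0.88 and 0.94 on the log2 scale in WT. Pgd and Taldo1 were as low as 0.993 and 0.98 in Acod1-/-, and Me1 there was at 0.90 to 1.02. The PM and the OI comparisons of a genotype share its PM libraries, so the values are set side by side and no relation between them was computed.

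**Figure D2:**
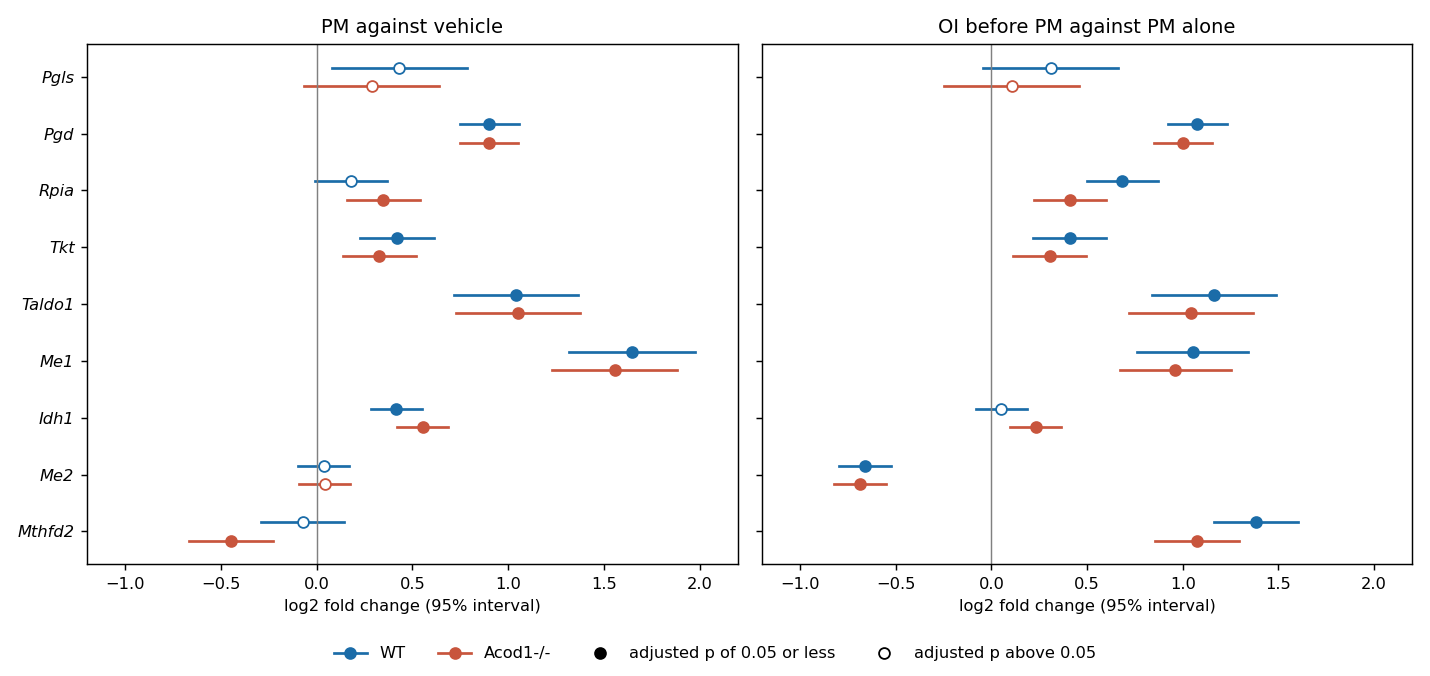
Log2 fold change of 9 enzyme genes for PM against vehicle (left) and for OI before PM against PM alone (right), in WT and Acod1-/-. Points are edgeR estimates, lines are 95% intervals and filled points were called at an adjusted p of 0.05 or less. Me1 leads on the left at 1.65 in WT, Mthfd2 leads on the right at 1.38 in WT, and Me2 lies below 0 on the right in both genotypes.

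Across both steps, OI and PM against vehicle, all 10 genes were called in WT, 9 higher and Me2 lower (background 65.5%, with 33.6% higher and 31.9% lower). In Acod1-/- 9 were called, 8 higher and Me2 lower (background 49.4%, with 22.7% higher and 26.7% lower), and Pgls missed the threshold (0.39 ± 0.16, adjusted p = 0.0624, edgeR). That difference of Pgls was called by DESeq2, with the replicate block, with the length correction, with both of these, with no filter and in the compared groups alone (adjusted p = 7.19e-10 to 0.0381). Me1 rose most, 6.49-fold in WT and 5.72-fold in Acod1-/-. Taldo1 rose 4.60-fold and 4.27-fold, and Pgd 3.94-fold and 3.73-fold. Mthfd2 rose 2.48-fold in WT and 1.54-fold in Acod1-/-.

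Genotype was compared at each treatment. With vehicle, edgeR called 0 of the 10 genes between Acod1-/- and WT (background 1.83%), DESeq2 called 0, and 2, Idh1 and Rpia, had an unadjusted p under 0.05. Idh1 was lower in Acod1-/- by -0.22 ± 0.06 (adjusted p = 0.140), and Rpia by -0.21 ± 0.09 (adjusted p = 0.427). A fit on the vehicle libraries alone called 4 lower in Acod1-/-, Pgd, Taldo1, Rpia and Idh1, where it called 20.6% of all genes. With PM 0 were called (background 2.4%), 0 by DESeq2, and Mthfd2 had an unadjusted p under 0.05 (-0.28 ± 0.10, adjusted p = 0.221).

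With OI and PM, 1 gene, Mthfd2, was called between genotypes (background 6.96%, with 4.45% lower), lower in Acod1-/- by -0.59 ± 0.10 (adjusted p = 0.00943, edgeR). Its Acod1-/- libraries, at 103 and 101 CPM, lay below the WT libraries, at 136 and 170.4 CPM, where 53.4% of all genes did not overlap. This call was lost without either Acod1-/- library (adjusted p = 0.0857 and 0.0944) and in a fit on these 4 libraries alone (adjusted p = 0.297). The count was 6 without replicate 1 of WT with OI and PM, Pgd, Pgls, Tkt, Taldo1, Rpia and Mthfd2, all lower in Acod1-/-, where 48.6% of all genes were called. Rpia narrowly missed in the fit of all libraries (-0.31 ± 0.08, adjusted p = 0.0509).

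The difference of the PM effect between genotypes was called for 0 of the 10 genes and for 0% of all genes, by edgeR. DESeq2 called 0 of the 10 and 3 genes in all, and Mthfd2 had an unadjusted p under 0.05 (-0.38 ± 0.14, adjusted p = 0.9998). For the OI effect 0 of the 10 and 0% of all genes were called, DESeq2 called 0 of the 10 and 34 genes in all, and 2 had an unadjusted p under 0.05, Rpia (-0.27 ± 0.12) and Mthfd2 (-0.31 ± 0.14), each with an adjusted p of 0.774. Without replicate 1 of WT with OI and PM the OI effect on Mthfd2 differed between genotypes by -0.46 ± 0.09 (adjusted p = 0.0367), in a fit that called 4.68% of all genes. For Pgd the 95% interval of the difference in OI effect was -0.29 to 0.14.

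Levels of different genes were compared as CPM per kb of exon, with ranks taken among all 10. In vehicle-treated WT BMDMs Taldo1 was highest at 202 ± 2.05 CPM per kb (SD, n = 2), followed by Idh1 at 156 ± 5.06 and Pgd at 104 ± 2.28. Tkt came at rank 5, at 64.95 ± 0.55, and the gene not named here held rank 4. Mthfd2 at 17.7 ± 0.70 and Pgls at 16.6 ± 1.66 did not differ beyond their spread. Me2 at 5.95 ± 0.02, Rpia at 2.57 ± 0.05 and Me1 at 0.996 ± 0.21 were the lowest. Taldo1 ranked first in all 12 libraries. Pgd passed Idh1 with OI and PM in both genotypes, and Me1 moved from rank 10 with vehicle to rank 9 with PM and rank 8 with OI and PM. Per length of the longest transcript in place of all exons Me1 was at rank 10, 10 and 9, and Pgd was above Idh1 with PM in WT and already with vehicle in Acod1-/-, so those orders depend on the length used.

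**Figure D3:**
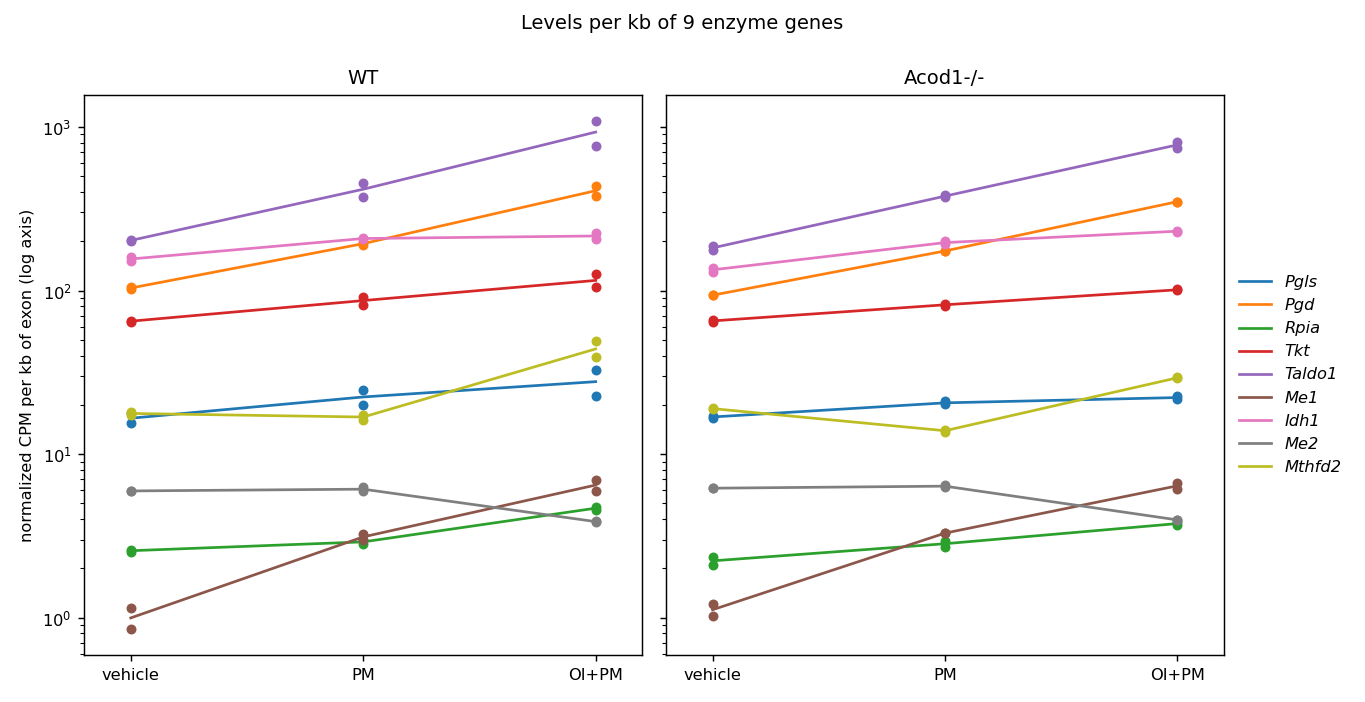
Normalized CPM per kb of exon (log axis) of 9 enzyme genes with vehicle, PM, and OI and PM in WT (left) and Acod1-/- (right). Points are libraries and lines join group means. Taldo1 is the highest gene throughout, at 202 with vehicle in WT, and Me1 starts as the lowest at 0.996 and ends above Rpia and Me2.

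The ratio of levels per kb within a library also moved with treatment. Taldo1 over Tkt was 3.12 and 3.11 in WT with vehicle, 4.59 and 4.98 with PM, and 7.33 and 8.69 with OI and PM. In Acod1-/- it was 2.81 and 2.78, 4.61 and 4.63, and 7.44 and 7.95. The ratio did not overlap between treatments within a genotype. No test was run on it.

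The genes most alike were taken as those with the highest Pearson r of log2 CPM over the 12 libraries among 9548 other genes with an average of at least 5 CPM. For Pgd they were Alas1 (r = 0.999), Gss (0.998) and Gstm1 (0.997). For Me1 they were Pla2g7 (0.994), Anxa4 (0.993) and Slc7a11 (0.992). For Mthfd2 they were Asns (0.993), Prmt5 (0.987) and Nars (0.986). The libraries fall into 6 groups, so that any gene with the same order of treatments scores high.

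Other genes around the pathway were grouped by list. Of 11 other pentose phosphate genes 8 were tested, and H6pd, the NADPH-forming enzyme of the endoplasmic reticulum, was the gene that rose in all 4 steps. It was at 84.7 and 80.7 CPM with vehicle in WT, 110.5 and 105 CPM with PM, and 163 and 139.8 CPM with OI and PM. Acod1-/- BMDMs had it at 82.1 and 80.5 CPM, 113 and 123 CPM, and 176 and 158 CPM. The treatments did not overlap, with log2 differences of 0.38 and 0.54 for PM in WT and Acod1-/- (adjusted p = 0.0130 and 0.00179, edgeR) and 0.49 and 0.50 for OI (adjusted p = 0.00152 and 0.00145). The PM call in WT was lost without either vehicle library (adjusted p = 0.0594 and 0.0972). Over both steps it rose 1.04 on the log2 scale in Acod1-/-. Prps2, which makes the ribose donor for nucleotides, fell with OI in WT by -0.56 ± 0.10 (adjusted p = 0.00112). It also fell with PM by -0.38 in WT and -0.42 in Acod1-/- and with OI by -0.39 in Acod1-/-, calls that were lost in 3, 4 and 2 of the 4 fits that each left out a compared library. The list counts were 1 higher and 1 lower after PM in each genotype. After OI they were 3 higher and 2 lower in WT and 1 and 2 in Acod1-/-. Medians were 0.05, 0.01, 0.0039 and 0.06 for the 4 steps (PM in WT and Acod1-/-, then OI in WT and Acod1-/-). Of all genes tested 24.8%, 23.9%, 43.9% and 34.6% were called at these steps.

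Of 10 further genes that form NADPH or NADP, 8 were tested. Nadk, the cytosolic kinase that makes NADP from NAD, rose with PM and came back with OI. It was at 165 and 169 CPM with vehicle in WT, 261 and 261 CPM with PM, and 163 and 186 CPM with OI and PM. Its Acod1-/- values were 166 and 175 CPM, 309.5 and 302 CPM, and 176 and 175 CPM. The PM libraries were above all others, with differences of 0.65 and 0.85 for PM (adjusted p = 9.74e-05 and 1.34e-05, edgeR) and -0.58 and -0.80 for OI (adjusted p = 7.05e-05 and 7.07e-06). Its mitochondrial counterpart Nadk2 rose with OI, by 0.68 and 0.57 (adjusted p = 0.000161 and 0.000583). Aldh1l1, a cytosolic folate dehydrogenase, fell with OI by -1.40 and -1.28 (adjusted p = 2.42e-06 and 3.87e-06), and overlapping genes make its counts uncertain. After PM 1 gene of the list was higher and 1 lower in each genotype, where 24.8% of all genes were called in WT and 23.9% in Acod1-/-. After OI 1 was higher and 5 lower in WT and 2 higher and 5 lower in Acod1-/-, with medians of -0.24 and -0.23. Among all genes tested, OI left 21.3% called higher and 22.6% lower in WT, and 13.9% and 20.6% in Acod1-/-. The mitochondrial isocitrate dehydrogenase Idh2 was called lower after OI in Acod1-/- (-0.28, adjusted p = 0.0485), a call lost without any 1 of its 4 libraries, and in WT it was called lower without replicate 2 of OI and PM (-0.29, adjusted p = 0.0222).

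Nnt, the mitochondrial transhydrogenase that makes NADPH from NADH, separated the genotypes. It was at 37.4 and 37.7 CPM in WT with vehicle, 33.2 and 33.0 CPM with PM, and 22.1 and 21.2 CPM with OI and PM. In Acod1-/- it was at 72.4 and 74.3 CPM, 64.3 and 63.4 CPM, and 52.9 and 52.0 CPM. All Acod1-/- libraries lay above all WT libraries, by 0.97, 0.95 and 1.27 on the log2 scale at the 3 treatments (adjusted p = 3.83e-05, 4.82e-05 and 9.33e-06, edgeR). It also fell with OI, by -0.61 in WT and -0.28 in Acod1-/-. The substrain C57BL/6J is known to carry a deletion in Nnt, the WT label names no substrain, and the annotation holds a second overlapping gene of this name with 3339 shared exonic bases. Acod1 genotype and strain background cannot be told apart here.

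Among 11 serine and one-carbon genes, all tested, OI moved members in opposite directions. Shmt1 and Tyms, which work in cytosolic folate metabolism and thymidylate synthesis, fell by -2.97 and -2.65 in WT and by -2.29 and -2.39 in Acod1-/-. With OI and PM Shmt1 was at 0.509 and 0.541 CPM in WT and 0.631 and 0.493 CPM in Acod1-/-. It passed the filter of 1.5 CPM only through libraries without OI, where it was at 2.56 to 4.55 CPM, so its fall is a description. Phgdh, the first enzyme of serine synthesis, rose 1.38 ± 0.27 in WT (adjusted p = 0.00223, edgeR), and the value in Acod1-/- was 0.66 ± 0.32 (adjusted p = 0.145). Psat1, the next enzyme, fell after PM by -0.81 in WT and -1.24 in Acod1-/-. Phgdh was at 1.47 to 7.92 CPM, and its PM differences, -0.84 and -1.07, were called in the fit of all libraries and lost in WT without any 1 of the libraries compared (adjusted p = 0.0783 to 0.220) and in Acod1-/- without replicate 2 of vehicle or either library with PM (adjusted p = 0.0999 to 0.192). With OI and PM, Phgdh and Psat1 were lower in Acod1-/- than in WT by -1.39 and -0.61 (adjusted p = 0.0172 and 0.0102), and both calls were lost without either Acod1-/- library (adjusted p = 0.0765 to 0.149). That of Phgdh was also lost without replicate 2 of WT (adjusted p = 0.0522). Mtr, methionine synthase, fell over both steps by -1.09 in WT and -1.10 in Acod1-/-. The counts were 0 higher and 3 lower after PM in each genotype. After OI they were 5 higher and 4 lower in WT and 2 and 5 in Acod1-/-. Medians were -0.07, -0.24, 0.26 and 0.05 for the 4 steps, where 24.8%, 23.9%, 43.9% and 34.6% of all genes were called.

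Of 23 genes whose products use NADPH, 22 were tested. After PM 15 were called higher and 0 lower in WT, and 12 and 1 in Acod1-/-, with medians of 0.46 and 0.36. Among all genes tested, PM left 12.6% called higher and 12.2% lower in WT, and 12% and 11.9% in Acod1-/-. After OI 12 were called higher and 5 lower in WT, and 11 and 4 in Acod1-/-, with medians of 0.46 and 0.24. The shares of all genes after OI were 21.3% higher and 22.6% lower in WT, and 13.9% and 20.6% in Acod1-/-. Nqo1, a quinone reductase and NRF2 target, was at 3.71 and 3.46 CPM with vehicle in WT, 46.9 and 44.8 CPM with PM, and 209.8 and 251 CPM with OI and PM. The Acod1-/- libraries had 2.27 and 2.14 CPM, 32.7 and 31.0 CPM, and 159 and 159 CPM, below WT at each treatment (-0.70, -0.53 and -0.54, adjusted p = 0.0234, 0.0130 and 0.00836, edgeR). The genotype calls of Nqo1 were lost without any 1 of the 4 libraries with vehicle (adjusted p = 0.1101 to 0.243) or with PM (adjusted p = 0.0573 to 0.139) and without either Acod1-/- library with OI and PM (adjusted p = 0.0824 and 0.0847). Txnrd1, thioredoxin reductase, rose by 0.89 and 0.91 with PM and by 1.13 and 1.22 with OI. Gsr, glutathione reductase, rose by 0.96 and 1.03 and by 0.54 and 0.64. Cbr3 and Blvrb, a carbonyl and a biliverdin reductase, rose in all 4 steps, by 1.20 to 1.41 and by 0.78 to 1.06. Akr1a1, an aldehyde reductase, rose by 1.18 and 0.89 with OI. The oxidase genes did otherwise. Cybb, the catalytic subunit of the phagocyte NADPH oxidase, rose with PM by 1.15 and 1.40 and fell with OI by -1.01 and -0.81, while Ncf4, a regulatory subunit, rose with PM by 1.02 and 1.12 and had values of 0.09 and -0.15 with OI, not called (0.31 in WT without replicate 1 of OI and PM, adjusted p = 0.0242).

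**Figure D4:**
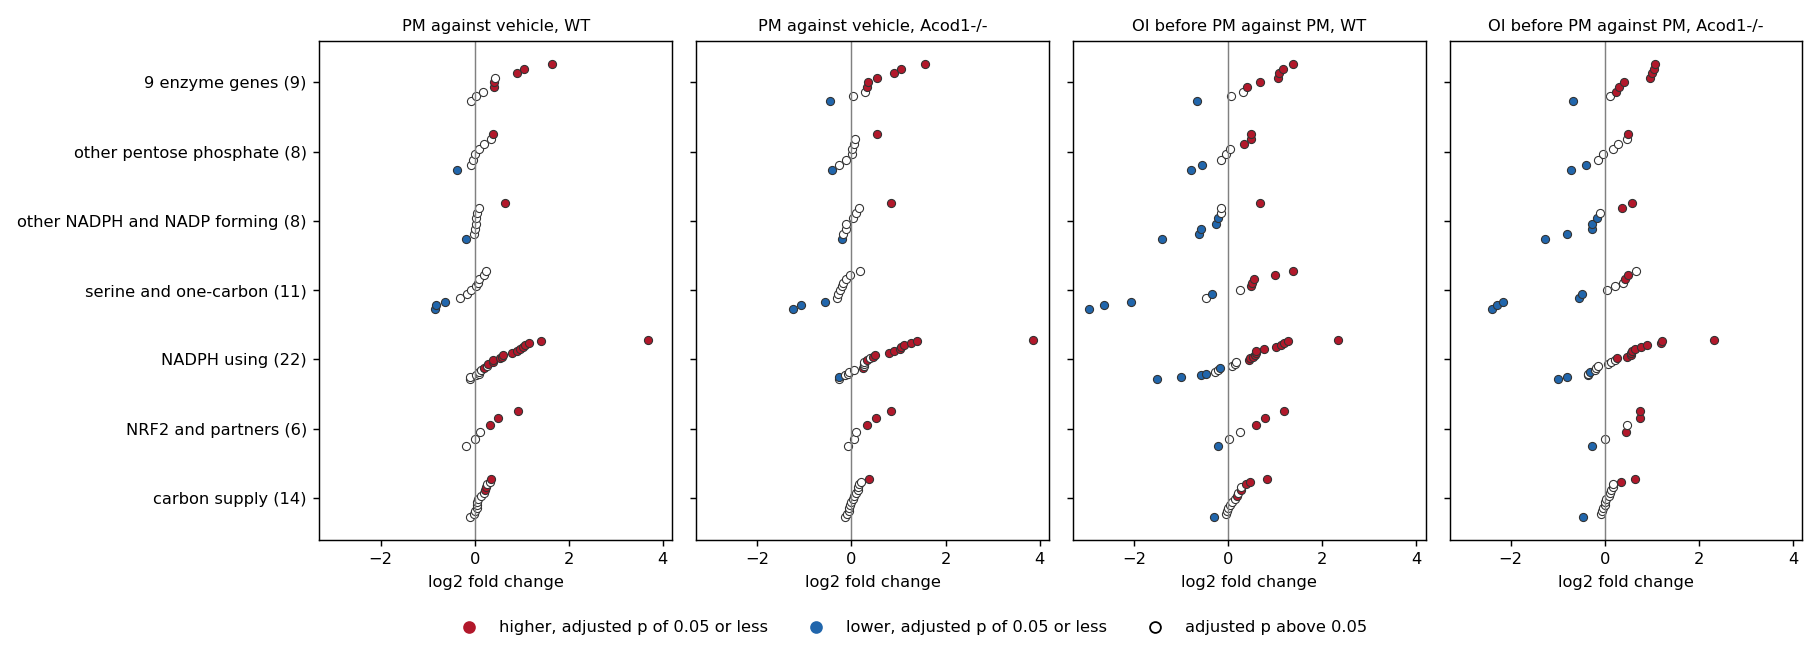
Log2 fold change of 9 enzyme genes and the tested genes of each list (a point is a gene, number tested in brackets) for PM against vehicle and for OI before PM against PM, in WT and Acod1-/-. Red and blue points were called higher and lower, and open points were not called. The highest point is Nqo1 at 3.68 after PM in WT and 3.85 in Acod1-/-. The lowest is Shmt1 at -2.97 after OI in WT, a gene under 1.5 CPM with OI and PM.

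NRF2 itself is encoded by Nfe2l2. It was at 296 and 301 CPM with vehicle in WT, 415 and 420.1 CPM with PM, and 347 and 371 CPM with OI and PM. It rose with PM by 0.49 and 0.51 in WT and Acod1-/- (adjusted p = 0.000257 and 0.000159, edgeR) and fell with OI by -0.22 and -0.27 (adjusted p = 0.0131 and 0.00499), and the OI libraries of WT lay between those of vehicle and PM. Keap1, which holds NRF2 for degradation, rose with PM by 0.32 and 0.33 and was at 0.03 and 0.01 with OI, not called. Of the small MAF partners, Maff was called higher in all 4 steps, by 0.75 to 1.20, but in Acod1-/- both calls were lost without any 1 library compared (adjusted p = 0.0517 to 0.113) and in WT that of PM without replicate 1 of vehicle (adjusted p = 0.0905). Mafg rose with OI by 0.78 and 0.75. Of the 6 genes of this list 3 were called higher and 0 lower after PM, and 3 higher and 1 lower after OI, in each genotype. Medians were 0.21, 0.21, 0.43 and 0.46 for the 4 steps, where 24.8%, 23.9%, 43.9% and 34.6% of all genes were called. The PM call of Keap1 in WT was lost without replicate 2 of vehicle (adjusted p = 0.0561), and the OI call of Nfe2l2 in Acod1-/- without replicate 1 of PM (adjusted p = 0.0514).

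Of 14 genes of glycolytic entry and citrate supply, 3 were called higher after PM in WT and 1 in Acod1-/-. After OI 5 were called higher and 1 lower in WT, and 2 and 1 in Acod1-/-. At the 4 steps 24.8%, 23.9%, 43.9% and 34.6% of all genes were called. The medians of the 4 steps were 0.10, 0.05, 0.17 and 0.05, and none of the 14 reached 2-fold. Slc2a1, the glucose transporter GLUT1, was the gene with the largest rise after OI, 0.82 in WT and 0.65 in Acod1-/- (adjusted p = 1.05e-05 and 5.94e-05, edgeR). Slc2a1, Prps2, Nadk2 and Mafg were named after their values were seen.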

How the data were processed

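The authors mapped single-end reads of 50 bp to GRCm38 and counted them per gene, and per the submitters' processing notes FastQC 0.11.5, STAR 2.5.3a, Picard 2.9.0, featureCounts and DESeq2 were used. The annotation release and the use of strand are not given in the sources used here. The deposited values are raw read counts per Ensembl gene, 1 file a library, with no row that names no gene. Of 48795 identifiers 48349 were matched to a symbol. Positions, exonic lengths and overlaps came from GENCODE vM21 (GRCm38), and promoters from RefSeq (GRCm38.p6).

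Genes with a CPM above 1.5 in at least 2 of the 12 libraries were tested. Counts were scaled by TMM and fitted with edgeR 4.0.16 in R 4.3.3 (quasi-likelihood, a mean per group, all 12 libraries). The test was checked on simulated data with the same spread for every gene and no trend with length. That check does not cover replicate differences like those of these libraries. Alternatives were DESeq2 1.42.0, separate fits of each pair of groups, scaling by RLE or by total counts, other filters, a 2-fold threshold, a replicate block, correction for exonic length (lowess span 0.3) and leaving out each library. The 10 genes and the gene lists were chosen with earlier results of these data known. Of the 10 genes 1, and some listed genes, are counted but not reported by name here. Beyond the 10 genes, the text names listed genes called with at least a 2-fold change in any comparison of 2 groups, 10 fixed genes (Nnt, Idh2, Nadk, H6pd, Txnrd1, Gsr, Nqo1, Nfe2l2, Keap1, and Acod1 for the labels), and the exceptions it states. Depth was 33616577 to 36817898 counts a library. At that depth the lowest of the 10 genes, Me1, had 128 counts or more.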

Additional observations from a re-analysis of the deposited data

How the results depend on the processing

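Of the comparisons of the 10 genes under the alternatives, 1460 kept their side of the threshold, 63 of them with a change of sign where neither value was called, 35 newly passed it, 25 no longer passed it and 0 reversed. Of the other named genes 1 changed sign and was called: Nadk with OI and PM against vehicle in WT was 0.06 and not called (adjusted p = 0.410), and -0.16 (adjusted p = 0.0272) under total count scaling, where the median of all genes was -0.2 as well.

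For the genotype comparison with OI and PM, where 1 of the 10 genes was called, DESeq2 called 3, the compared groups alone 0, no filter on low counts 3, the 2-fold threshold 0, length correction 2 and length correction with a replicate block 3. All genes called were 11.8%, 0.0178%, 9.36%, 0.917%, 15.4% and 16.9% under these. Leaving out a library gave 0 to 6, beside 0.846% to 48.6% of all genes. For genotype with vehicle, where 0 were called, the compared groups alone gave 4. With a 2-fold threshold the counts were 2 for PM in each genotype, 4 and 3 for OI in WT and Acod1-/-, and 5 and 4 for OI and PM against vehicle, beside 4.15%, 4.5%, 10.8%, 9.83%, 16.1% and 13.1% of all genes. Leaving out a library gave 5 to 7 for PM in Acod1-/-, beside 12.4% to 15.2% of all genes, and 0 to 1 for the OI effect by genotype, where the fit that called 1 called 4.68% of all genes. The cause was not tested, beyond the fewer libraries or the stricter rule that these settings use by construction.

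The replicate numbers of the labels are not stated to mark a shared animal, culture or day, so they share only a number. With the replicate block the calls were 7 for PM in WT, 8 for PM in Acod1-/-, 8 and 9 for OI in WT and Acod1-/-, and 0, 0 and 1 for genotype with vehicle, PM, and OI and PM, beside 27.4%, 25.5%, 45.7%, 35.6%, 1.71%, 2.27% and 7.84% of all genes. Same-numbered libraries deviated together with a correlation of 0.73 for OI in WT and -0.41 for genotype with PM. A pairing with exchanged numbers for the latter, chosen after seeing the data, also called 0.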
